A study of Mus musculus with 14 samples.

Results

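Interferon response genes were followed through the chromatin of Treg cells from adult Foxp3AID mice, with ATAC-seq, an assay that tags DNA not covered by nucleosomes with a loaded transposase. The list holds 38 genes, from the interferon receptors to the antiviral effectors. A window of the count table, 201 bp wide and centred on a peak summit, was a member where its centre had a listed gene as the nearest protein-coding start site, within 50 kb. By this rule 517 of 240778 windows were members (0.215%), and they belonged to 35 genes and 351 regions of joined overlapping windows. The rule used position alone and none of the measured counts.

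Cells of the Treg lineage came from the spleens and lymph nodes of 14 mice, and the labels give every mouse an AID-tagged Foxp3 allele and 5-ph-IAA. Cells that use this allele make Foxp3 with a degron attached, and also make Cre and the green fluorescent protein ZsGreen. For day 7 the study describes the mice of this assay as Foxp3AID/WT, whereas the genotype labels name only the AID allele. The study used Foxp3AID/WT females, in which Treg cells with the untagged allele keep Foxp3. Mice labelled Foxp3-AID ROSA26-TIR1(F74G), here R26TIR1(F74G), also had a Cre-dependent gene for TIR1, the plant protein that recognises the degron once 5-ph-IAA is bound, and for the red protein mCherry. TIR1 was therefore made only in cells in which Cre had acted, and there 5-ph-IAA triggers degradation of the tagged Foxp3. Mice labelled Foxp3-AID ROSA26-WT, here R26WT, lacked TIR1 and served as controls. On day 3 of 5-ph-IAA there were 4 R26TIR1(F74G) and 4 R26WT mice, and on day 7 there were 3 of each genotype. The study's methods sorted control cells on ZsGreen and R26TIR1(F74G) cells on ZsGreen and mCherry, so that the gates differed between genotypes and this difference cannot be told apart from genotype. The methods describe resting and activated cells, whereas the labels give Treg cells without an activation state, and values are therefore not divided by it. The headers of the count table name a different mouse for every library, so that replicates are separate mice. The mouse names carry 2 letter prefixes, whose meaning is not given, and the second prefix occurs in both R26TIR1(F74G) groups and in replicate 4 of the R26WT mice on day 3 but in no R26WT mouse on day 7.

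Interferons are secreted alarm proteins. Type I interferons signal through a receptor made of Ifnar1 and Ifnar2, and interferon-γ through a receptor made of Ifngr1 and Ifngr2. Both receptors activate Janus kinases and STAT factors, which bind interferon-stimulated response elements (ISRE), together with Irf9, or interferon-gamma activated sites (GAS) at the promoters of target genes. Other interferon regulatory factors (IRFs) bind related sequences, and the induced genes encode sensors of foreign nucleic acids, antiviral effectors and negative regulators. T cells carry both receptors and respond to both kinds of interferon.

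Counts in windows ranged from 5653289 (R26TIR1(F74G), day 3, replicate 1) to 20184487 (R26TIR1(F74G), day 7, replicate 3), and the second shallowest library was replicate 3 of the R26WT mice on day 7, with 6348754. Between 0.226% and 0.239% of the counts of each library lay in member windows. Levels are given in CPM, the count scaled to library size with TMM factors over all 14 libraries, for windows of 1 fixed width, so that levels of different genes are on one scale per length. The smallest mean count of a window over these libraries was 10.1, so that a missing window can also mean a low count. Markers of B cells had start-site windows for 2 of 7 genes, which summed to between 2.99 and 7.65 CPM per mouse, and Ms4a1 had no window. Markers of myeloid cells had start-site windows for 3 of 7 genes, which summed to between 8.997 and 11.7 CPM, and Csf1r and Fcgr3 had no window. Markers of plasmacytoid dendritic cells, a main source of type I interferon, had start-site windows for Tcf4 and Ccr9, which summed to between 26.6 and 39.4 CPM, of which Tcf4 held a mean of 30.9 CPM, and Klk1 had no window. Markers of CD8 T cells summed to between 11.3 and 15.5 CPM over Cd8a and Cd8b1, and the 3 NK cell markers had no start-site window. Markers of Treg and T cells had start-site windows for 5 of 7 genes (Il2ra, Ctla4, Ikzf2, Cd3e and Cd4), which summed to between 53.7 and 74.5 CPM, whereas Foxp3 and Tnfrsf18 had windows but none within 1000 bp of their start sites. Markers of resting Treg cells summed to between 122.6 and 187.7 CPM over 7 start sites, and those of activated Treg cells to between 60.4 and 78.8 CPM over 6 of 9 genes. The ranges of the genotypes overlapped for each summed list on day 3 and on day 7, and no window of these lists passed the test in any comparison. Over both days, 15 of 202 Treg and T cell windows were lower and 4 higher in R26TIR1(F74G) mice at an unadjusted p under 0.05. For resting Treg cells 22 of 369 were lower and 12 higher, and for activated Treg cells 12 of 181 were lower and 4 higher. Over all windows 3.57% were lower and 3.16% higher. The part of cell composition in the results was not tested. Degradation of the Foxp3 protein leaves the Foxp3 gene intact, so accessibility at that locus does not check the labels.

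Many of the listed genes, though not all, carry in their promoters the letters through which interferon signals are read. The promoters below belong to genes described in what follows. RefSeq promoters of GRCm38.p6, from 250 bases before to 50 bases after a transcript start, were matched to 32 of the 38 listed genes. The ISRE was searched as GAAANNGAAA on both strands and the GAS as TTCNNNGAA, which reads the same on both strands, and overlapping matches were each counted. The ISRE letters were found in promoters of 17 of the 32 genes (53.1%), against 689 of 17492 protein-coding genes (3.94%) and 3.44% of all 32851 promoters. The GAS letters were found in 12 of the 32 (37.5%), against 8.92% of protein-coding genes and 8.30% of all promoters, and 6 listed genes held both. Bases are given 5′ to 3′ on the strand of the gene, all of them before the transcript start of the promoter. In each, 1 match is in capitals, which for Gbp2 and Ifit1 is the reverse complement TTTCNNTTTC. For Oas1a this transcript start differs from the start site used for the windows (chr5:120907544), which lies within the bases shown.
Isg15 (ISRE, chr4:156200856-156200915, minus strand): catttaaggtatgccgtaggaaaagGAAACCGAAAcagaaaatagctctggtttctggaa
Irgm1 (ISRE, chr11:48871421-48871475, minus strand): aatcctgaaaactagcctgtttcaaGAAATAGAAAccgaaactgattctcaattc
Igtp (ISRE, chr11:58199497-58199555, plus strand): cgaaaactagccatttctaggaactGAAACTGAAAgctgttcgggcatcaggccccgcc
Gbp2 (ISRE, chr3:142620579-142620638, plus strand): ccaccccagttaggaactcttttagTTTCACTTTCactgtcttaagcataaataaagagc
Ifit1 (ISRE, chr19:34640779-34640838, plus strand): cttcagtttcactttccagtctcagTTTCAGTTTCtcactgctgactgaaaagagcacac
Oas1a (ISRE, chr5:120907526-120907570, minus strand): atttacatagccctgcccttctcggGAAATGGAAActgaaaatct
Irf2 (ISRE, chr8:46739495-46739538, plus strand): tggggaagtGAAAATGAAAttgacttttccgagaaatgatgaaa
Irf1 (GAS, chr11:53769899-53769957, plus strand): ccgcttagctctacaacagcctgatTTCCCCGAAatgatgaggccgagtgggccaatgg
Irf8 (GAS, chr8:120736162-120736220, plus strand): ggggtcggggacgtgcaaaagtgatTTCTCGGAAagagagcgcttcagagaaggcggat
The Isg15 promoter held 3 overlapping ISRE matches, of which the middle one is shown, and the Irf1 and Irf8 promoters held GAS letters and no ISRE letters. A match is a description of letters and not of a bound factor. For 8 of the 17 genes an ISRE match lay inside the start-site window, as in Isg15, Irgm1, Igtp and Irf2, and for 11 it lay inside some window of the table. Genes with the ISRE letters and a start-site window (15 genes) had a median level of 13.8 CPM there, and those without (13 genes) had a median of 21.6 CPM. Over all protein-coding genes the medians were 16.8 CPM with the letters (346 genes) and 17.3 CPM without (8902 genes).

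Of the listed genes, 32 had a start-site window, which is the window of highest mean count with its centre within 1000 bp of the start site. Oasl1, an OAS-like protein, had no window in the table used here, in which the smallest mean count of a window was 10.1. Ifit3, Oas3 and Ifngr2 had windows but none within 1000 bp. The 4 windows of Oas3 began 1322 bp into the gene and reached 14.5 CPM, the 4 windows of Ifit3 lay over Ifit2 and reached 2.04 CPM, and the 6 windows of Ifngr2 reached 2.84 CPM. The antiviral GTPase genes Mx1 and Mx2 are listed as transcribed pseudogenes in the annotation, so that no window could be assigned to them by the rule. Counted as start sites, Mx1 took 30 windows and Mx2 took 15, with 6.87 and 10.3 CPM at their most accessible window within 1000 bp. None of these windows passed the test in any comparison. Member windows lay within 1000 bp of the start site in 141 cases, between 1 and 10 kb in 117, between 10 and 25 kb in 177 and between 25 and 50 kb in 82. The number per gene ran from 1 (Isg15) to 45 (Irf2), with 43 each for Irf1 and Irf8 and 42 for Ifnar1. By annotated gene bodies, 191 windows lay inside the member gene, 33 inside another protein-coding gene and 293 outside all of them.

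The start sites covered a wide range of accessibility. Over 14 mice the mean level ran from 1.22 CPM at Ifi44 to 39.9 CPM at Ifngr1, with a median of 14.7 CPM, against a median of 16.4 CPM over the start-site windows of 11485 genes. Of the 32 members, 14 were above that median. The IRF genes had a median of 24.96 CPM and the receptors 27.9 CPM, whereas the OAS family had 1.84 CPM. Among mice of one group the SD of log2 CPM had a median of 0.18 over the 32 windows, against 0.19 over all start-site windows, and it was largest at Oas1a (0.67), one of the least accessible.

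**Figure D1:**
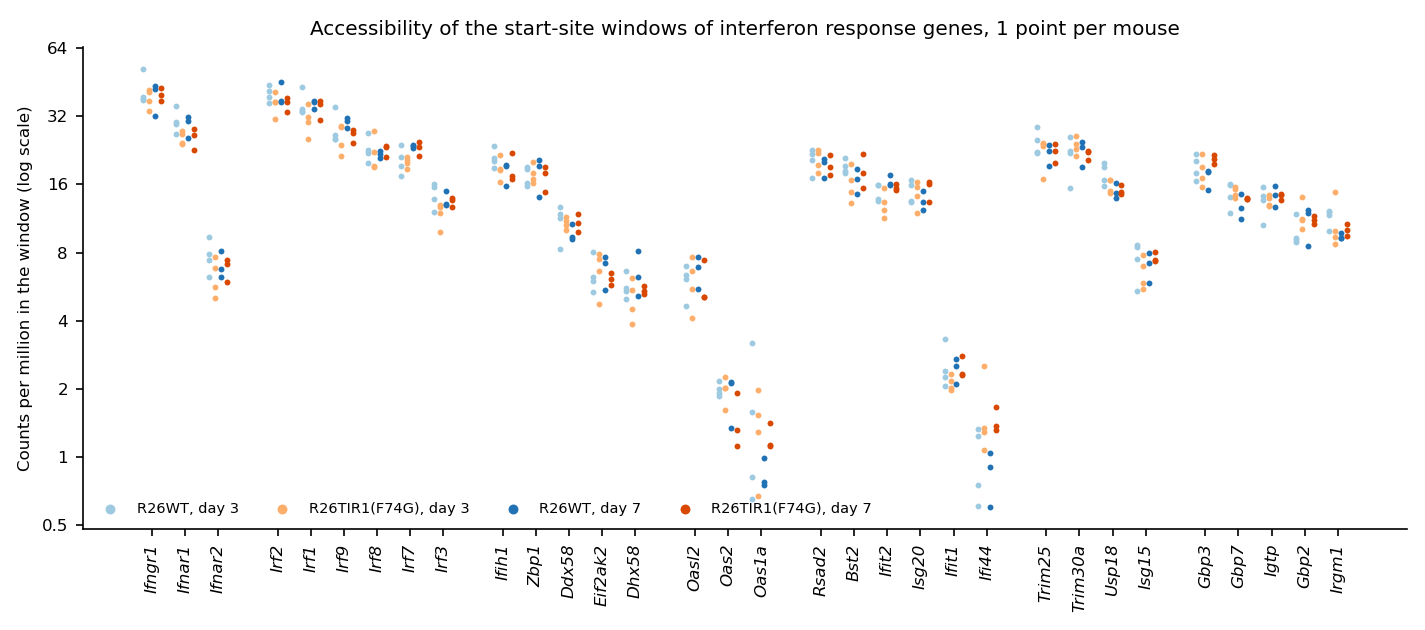
CPM (log scale) in the start-site window of each of 32 interferon response genes, with 1 point per mouse, grouped from left to right as receptors, IRF factors, sensors, OAS family, antiviral effectors, ISG15 and TRIM modifiers, and GTPases. The 4 colours (R26WT and R26TIR1(F74G), day 3 and day 7) overlap at almost every gene, and Oas2, Oas1a, Ifit1 and Ifi44 lie lowest.

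The most accessible start sites were those of Ifngr1, Irf2 and Irf1. Ifngr1, the ligand-binding chain of the interferon-γ receptor, had 38.1, 37.9, 38.8 and 51.8 CPM in R26WT mice and 41.7, 41.1, 33.9 and 37.3 CPM in R26TIR1(F74G) mice on day 3. On day 7 its window (chr10:19591723-19591924) had 42.3, 43.4 and 32.2 CPM in R26WT and 39.8, 37.3 and 42.8 CPM in R26TIR1(F74G) mice. The groups overlapped on both days, and replicate 4 of the R26WT mice on day 3 stood above all others. Single mice ranged from 32.2 to 51.8 CPM at Ifngr1, from 31.1 to 45.2 CPM at Irf2 and from 25.5 to 43.1 CPM at Irf1. These ranges overlapped. Within the same mouse, Ifngr1 was above Irf1 in all but replicate 3 of the R26WT mice on day 7 (32.2 against 34.6 CPM). At the other end, Ifi44, Oas1a and Oas2 stood at the 3.40, 3.85 and 7.78 percentiles of the start-site windows of all genes.

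Away from the start sites, the 5 most accessible windows belonged to Irf1, Irgm1 and Trim30a. A group of 3 windows about 6 kb upstream of Irf1 had 28.98, 24.1 and 22.97 CPM, against the 34.4 CPM of its start site. A window 14868 bp downstream of the Irgm1 start site (chr11:48856451-48856652) had 25.7 CPM, above the 10.5 CPM of the start-site window itself. The Trim30a window 19042 bp downstream (chr7:104446050-104446251) had 22.5 CPM and overlapped the second promoter that RefSeq lists for this gene, at chr7:104446076-104446375. The median over the 376 windows more than 1000 bp away was 1.99 CPM, and over all 240778 windows it was 1.80 CPM.

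**Figure D2:**
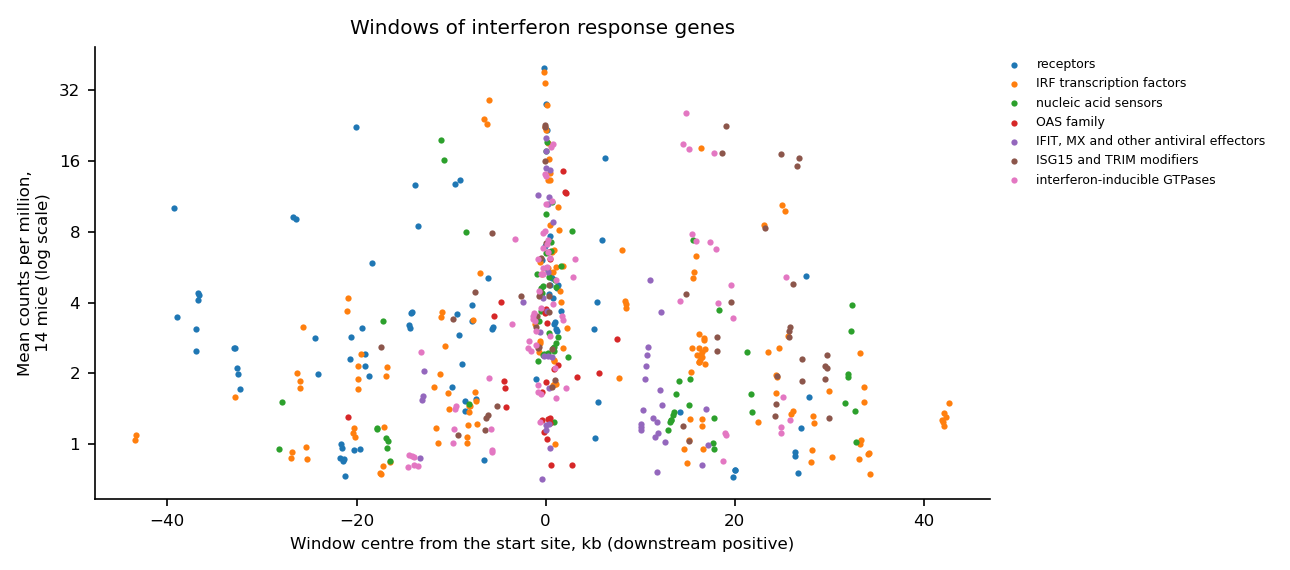
Mean CPM over 14 mice (log scale) of the 517 member windows against the distance of the window centre from the start site in kb, coloured by role. Windows at 0 kb reach 39.9 CPM at Ifngr1, and away from it the windows about 6 kb upstream of Irf1 and downstream of Irgm1 and Trim30a are highest.

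R26TIR1(F74G) mice, in which 5-ph-IAA triggers degradation of Foxp3, were compared with R26WT mice first across all member windows. No member window passed an adjusted p of 0.05 in edgeR's quasi-likelihood test, whether day 7 (0 of 514 tested), day 3 (0) or both together (0 of 517) were fitted. Over all windows the share called was 0.00463% on day 7 (11 windows), 0.0% on day 3 (0 windows) and 0.0112% over both days (27 windows). The smallest adjusted p of a member window was 0.227 on day 7, 0.457 on day 3 and 0.469 for the days combined. DESeq2's Wald test called 0 member windows in these comparisons too.

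At an unadjusted p under 0.05 the counts were as follows. On day 7, 23 member windows (4.47%) were higher and 11 (2.14%) lower in R26TIR1(F74G) mice, against 2.75% and 3.2% of all windows. Overlapping windows share reads, and the 23 higher windows fell in 17 regions of 9 genes, with 7 of them at Irf1. On day 3, 14 member windows (2.73%) were higher and 29 (5.66%) lower, against 3.93% and 3.62% of all windows, and Ifnar1 held 7 and Irf1 held 6 of the lower ones. These counts moved when single mice were left out. The 23 higher windows on day 7 were 12 without replicate 3 of the R26TIR1(F74G) mice, and the 29 lower windows on day 3 were 14 without replicate 3 of the R26WT mice and 18 without replicate 3 of the R26TIR1(F74G) mice. The 14 higher windows on day 3 were 9 without replicate 2 of the R26TIR1(F74G) mice. With loess offsets the lower windows on day 3 numbered 16. Over the settings other than leaving out mice, the higher windows on day 3 ran from 3 to 21 and the lower from 5 to 32. Some of these settings change which windows are counted, and the shares of all windows given here are those of the main fit. Over both days, 16 (3.09%) were higher and 21 (4.06%) lower, against 3.16% and 3.57%, and Ifnar1 held 8 of the lower ones.

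Separation of the groups was counted in the same way. On day 7 every R26TIR1(F74G) mouse was above every R26WT mouse in 47 member windows (9.14%) and below in 26 (5.06%), against 5.81% and 6.02% of all windows. On day 3 the counts were 6 (1.17%) and 10 (1.95%), against 2.0% and 2.11%. Over the 7 mice of each genotype no member window separated the groups in either direction, against 0.0527% and 0.0635% of all windows.

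At the start sites the differences were close to those at the start sites of all genes. The median log2 fold change of the 32 start-site windows (R26TIR1(F74G) against R26WT) was -0.0037 on day 7, with 16 above 0 and 16 below, against a median of -0.015 over the start sites of all genes. On day 3 it was -0.13, with 7 above 0 and 25 below, against -0.11 over all start sites. With loess offsets, which scale each library by the level of the window, the day 3 median was 0.0093 with 17 above 0 and 15 below, and that of all start sites was -0.0077. It was -0.035 without replicate 4 of the R26WT mice on day 3. Over both days the median was -0.064, with 8 above 0 and 24 below, against -0.066 over all start sites. This median was -0.020 with loess offsets, with 15 above 0 and 17 below, -0.020 without R26TIR1(F74G) replicate 3 of day 3, and -0.0012 over every member window within 1000 bp. The median standard error of a single start-site window was 0.14 on day 7 and 0.13 on day 3. On day 7 the groups were apart at 4 of the 32 start sites, with R26TIR1(F74G) mice higher at Ifi44, Oas1a and Gbp3 and lower at Irf9, a count near the 5.81% higher and 6.02% lower of all windows, and on day 3 they overlapped at every one.

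**Figure D3:**
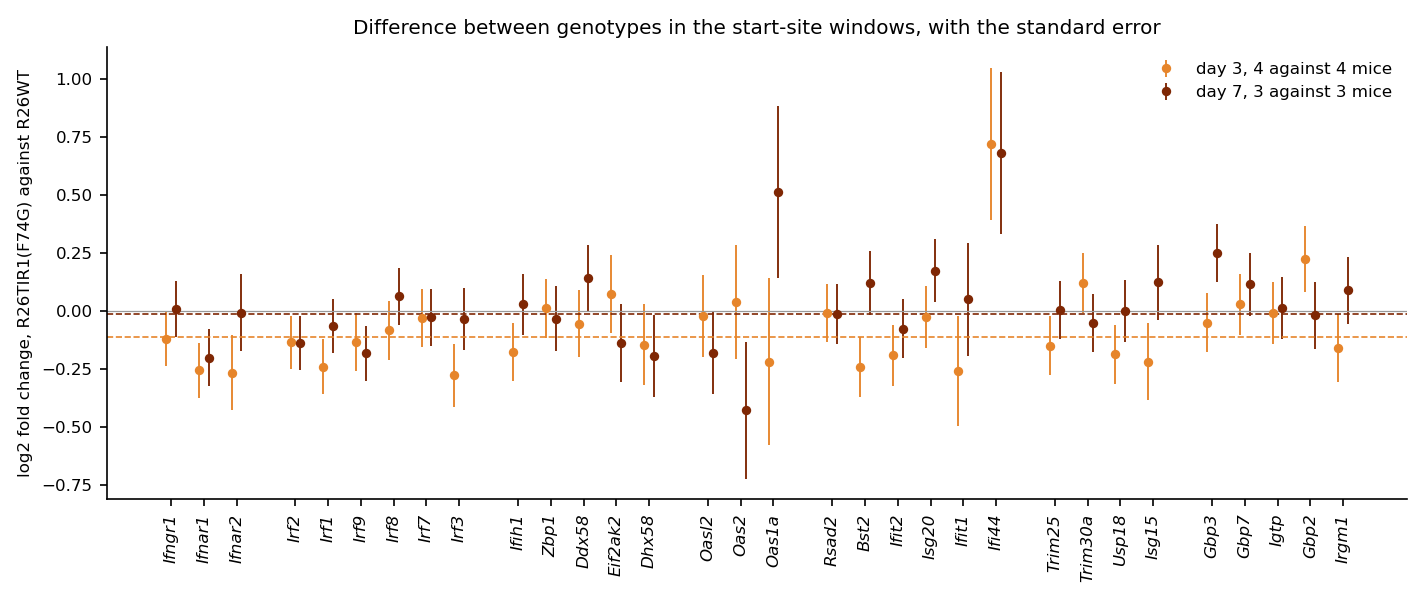
Log2 fold change of R26TIR1(F74G) against R26WT mice in each start-site window, with its standard error, on day 3 and day 7. Dashed lines mark the medians over the start sites of all genes (-0.11 on day 3 and -0.015 on day 7), around which most members lie, and Ifi44 is high on both days with wide errors.

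**Figure D4:**
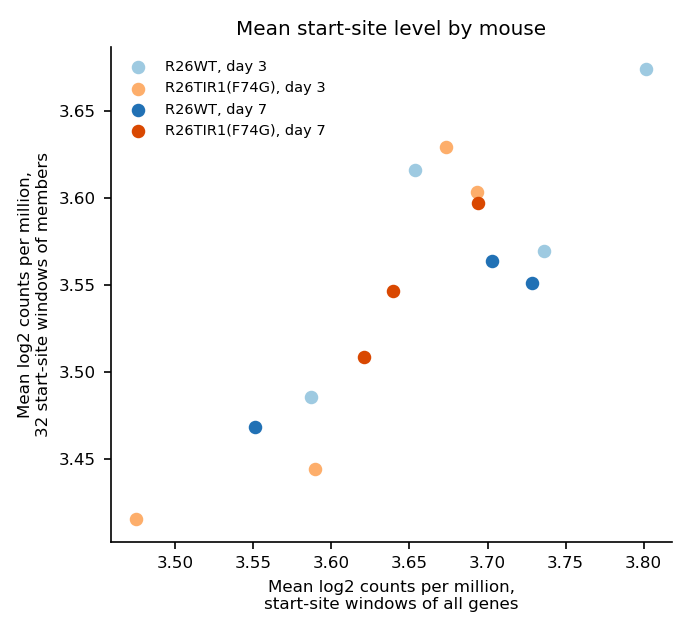
Mean log2 CPM of the 32 member start-site windows in each mouse against the mean over the start-site windows of all genes. Member means lie between 3.42 and 3.67 and means over all start sites between 3.47 and 3.802, and the ranges of the genotypes overlap on both days.

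In single mice the mean log2 CPM of the 32 windows ranged from 3.49 to 3.67 in R26WT and from 3.42 to 3.63 in R26TIR1(F74G) mice on day 3. On day 7 it ranged from 3.47 to 3.56 in R26WT and from 3.51 to 3.60 in R26TIR1(F74G) mice. The genotypes overlapped on both days, and the mean over the start sites of all genes ranged from 3.47 to 3.802 in the same mice. In every mouse the members were below the mean of all start sites, by between 0.04 and 0.18.

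Among the receptors, the 3 start sites had log2 fold changes of -0.23 (Ifnar1), -0.15 (Ifnar2) and -0.06 (Ifngr1) over both days, that of Ifngr1 turning to 0.02 with loess offsets, and none passed the test. Ifnar1, a chain of the type I interferon receptor, had 26.8, 29.5, 30.3 and 35.6 CPM in R26WT and 26.8, 24.3, 24.1 and 27.7 CPM in R26TIR1(F74G) mice on day 3 at its start site (chr16:91484938-91485139). The values on day 7 were 31.8, 30.4 and 25.6 CPM in R26WT and 22.6, 28.1 and 26.5 CPM in R26TIR1(F74G) mice. The groups overlapped on both days, and the log2 fold change over both days was -0.23 ± 0.09 (SE, adjusted p = 0.606, edgeR). A window 37 kb upstream (chr16:91447992-91448193), outside any protein-coding gene, kept the genotypes apart on each day. It had 2.77, 3.64, 3.76 and 3.48 CPM in R26WT and 1.98, 2.68, 2.46 and 2.25 CPM in R26TIR1(F74G) mice on day 3. On day 7 the values were 3.68, 3.61 and 4.65 CPM in R26WT and 1.604, 3.34 and 3.29 CPM in R26TIR1(F74G) mice. Every R26TIR1(F74G) mouse was below every R26WT mouse of its day, with log2 fold changes of -0.51 ± 0.21 on day 3 and -0.50 ± 0.23 on day 7 (SE), and the value over both days, -0.50 ± 0.16, had an adjusted p of 0.475 in edgeR's test. Across days the groups overlapped. Of the 88 receptor windows, 10 were lower and 0 higher at an unadjusted p under 0.05 over both days, against 3.57% lower and 3.16% higher over all windows. Of the 10, 8 were at Ifnar1, where 5 windows 37 kb upstream overlapped in a chain and shared reads.

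The IRF transcription factors had the most windows (150) and the member window with the smallest p of all. The 6 start sites had log2 fold changes of -0.17 to -0.02 over both days. The value farthest from 0 was at Irf3, a factor activated by phosphorylation after nucleic acid sensing, with 13.8, 12.1, 16.05 and 15.6 CPM in R26WT and 12.8, 12.98, 11.9 and 9.89 CPM in R26TIR1(F74G) mice on day 3. Day 7 gave 14.9, 13.1 and 13.05 CPM in R26WT and 13.7, 13.9 and 12.7 CPM in R26TIR1(F74G) mice, so the groups overlapped on both days. Its log2 fold change over both days was -0.17 ± 0.10 (SE, edgeR's adjusted p = 0.7996). Irf1, an early target of interferon-γ, had 34.4, 33.7, 33.3 and 43.1 CPM in R26WT and 36.3, 30.1, 25.5 and 31.7 CPM in R26TIR1(F74G) mice at its start site (chr11:53769847-53770048) on day 3, and the log2 fold change over both days was -0.16 ± 0.09. Irf2, a factor that can oppose Irf1, had a start-site level of 38.2 CPM and differed by -0.14 ± 0.08 over both days.

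Downstream of Irf1 the log2 fold changes of a stretch of windows had opposite signs on the 2 days, short of the threshold and with overlapping groups on day 3. The window with the smallest p of all member windows on day 7 was centred 16810 bp downstream of the start site (chr11:53786723-53786924), outside any protein-coding gene. For day 7 they were 1.74, 1.16 and 1.35 CPM in R26WT and 3.37, 3.398 and 2.73 CPM in R26TIR1(F74G) mice. Every R26TIR1(F74G) mouse was higher, by 1.15 ± 0.26 (log2, SE, edgeR's adjusted p = 0.227). On day 3 it had 4.502, 2.71, 2.66 and 2.54 CPM in R26WT and 1.44, 2.84, 1.86 and 3.14 CPM in R26TIR1(F74G) mice, which overlapped and differed by -0.32 ± 0.24. The interaction of day and genotype was 1.46 ± 0.36 (log2, SE), with an adjusted p of 0.504 in edgeR's test.

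Neighbouring windows overlap and share reads. The 13 windows between 15.3 and 16.9 kb downstream, a stretch chosen after its values were seen, fell in 4 regions. On day 7 all 13 log2 fold changes were above 0, from 0.15 to 1.15 with a median of 0.48. In 8 of the windows every R26TIR1(F74G) mouse was above every R26WT mouse, against 5.81% of all windows. The stretch was picked for its values and its windows share reads, so this count is no independent support. On day 3 none was above 0, from -0.61 to -0.23 with a median of -0.38. The groups overlapped in all 13 windows on that day, and 2 had an unadjusted p under 0.05, against 3.62% lower over all windows. In the window of the lowest day 3 value (chr11:53786456-53786657), R26TIR1(F74G) replicate 1, the shallowest library, had 1.08 CPM, and the others had 1.71 to 2.68 CPM. There R26WT replicate 1 had 4.59 CPM, and the others had 2.595 to 3.04 CPM. Not every window had these mice at the ends, as the next one shows. A second region of the stretch (chr11:53785625-53785826) had 3.75, 4.01 and 3.15 CPM in R26WT and 8.07, 5.96 and 4.76 CPM in R26TIR1(F74G) mice on day 7. On day 3 the same window had 6.75, 5.95, 6.83 and 5.96 CPM in R26WT and 4.86, 5.53, 3.503 and 6.27 CPM in R26TIR1(F74G) mice. The R26WT mice of day 7 were all below those of day 3, whereas the R26TIR1(F74G) mice overlapped between the days. Here the log2 fold change was 0.75 ± 0.20 on day 7 and -0.33 ± 0.17 on day 3 (SE), with edgeR's adjusted p of 0.458 and 0.685. Another 2 windows of the stretch, chr11:53786793-53786994 and chr11:53785463-53785664, had log2 fold changes of 1.03 ± 0.28 and 0.72 ± 0.20 on day 7.

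**Figure D5:**
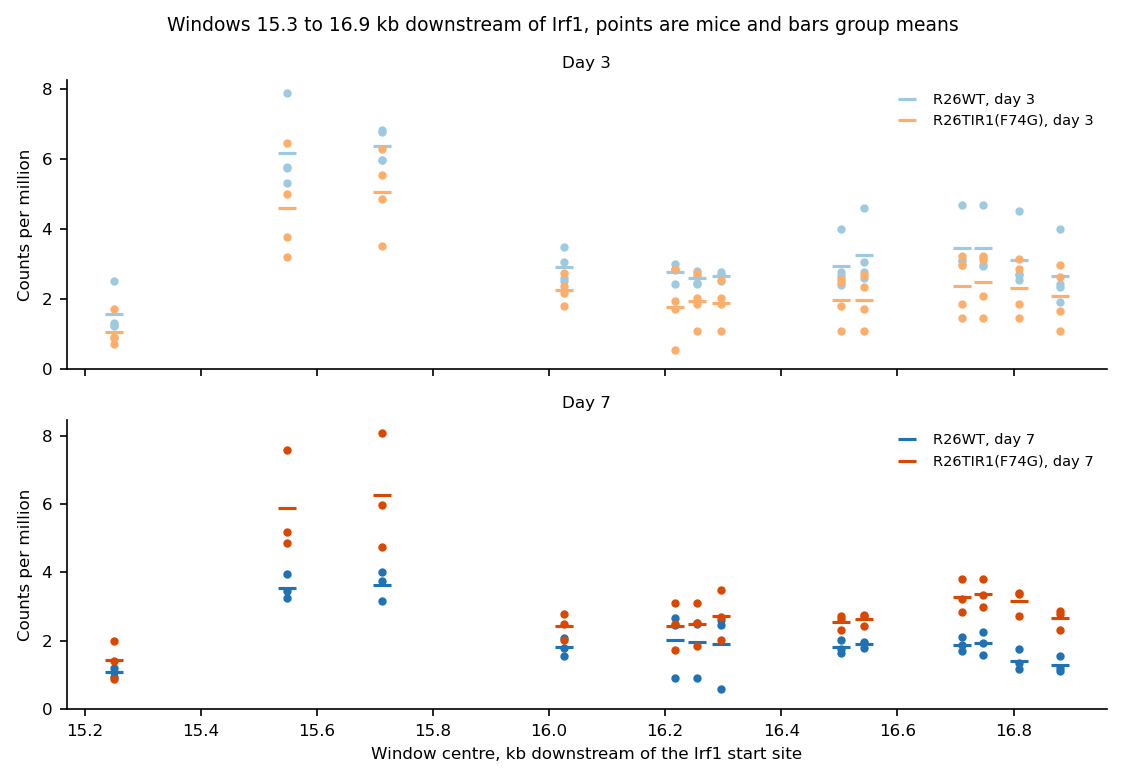
CPM in the 13 windows between 15.3 and 16.9 kb downstream of the Irf1 start site, against the distance of the window centre in kb, on day 3 (top) and day 7 (bottom), with mice as points and group means as bars. R26TIR1(F74G) means lie below R26WT means on day 3 and above them on day 7, and neighbouring windows overlap.

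Among the nucleic acid sensors the start sites differed little. Dhx58, a regulator of the RNA sensors encoded by Ddx58 and Ifih1, had the largest value, with 6.67, 5.42, 4.99 and 5.61 CPM in R26WT and 4.496, 6.17, 3.88 and 5.47 CPM in R26TIR1(F74G) mice on day 3. On day 7 it had 5.17, 6.22 and 8.097 CPM in R26WT and 5.401, 5.25 and 5.72 CPM in R26TIR1(F74G) mice. The groups overlapped on both days, and the log2 fold change over both days was -0.17 ± 0.13 (SE, edgeR's adjusted p = 0.865). At Zbp1, a sensor of Z-form nucleic acids, a window 13778 bp downstream (chr2:173205081-173205282) had 1.47, 0.794, 1.37 and 0.944 CPM in R26WT and 3.78, 2.36, 1.71 and 1.61 CPM in R26TIR1(F74G) mice on day 3. The R26TIR1(F74G) mice were all higher, by 0.97 ± 0.30 (log2, SE, edgeR's adjusted p = 0.466). On day 7 the groups overlapped, with 1.098, 1.34 and 1.499 CPM in R26WT and 1.497, 2.38 and 0.961 CPM in R26TIR1(F74G) mice. A second Zbp1 window, 16798 bp upstream and inside Pmepa1 (chr2:173235656-173235857), had a mean of only 0.967 CPM and differed by 1.29 ± 0.40 on day 3 and -0.50 ± 0.43 on day 7. Eif2ak2, the kinase PKR, had a start-site log2 fold change of 0.07 on day 3 and -0.14 on day 7. Over the 70 sensor windows, 1 was higher and 1 lower at an unadjusted p under 0.05 over both days, no larger a share than the 3.16% and 3.57% of all windows.

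The enzymes of the OAS genes make oligoadenylates that activate an RNA-degrading nuclease. At the start sites this group had the lowest median level, 1.84 CPM over 3 genes. Over all windows its median was 1.89 CPM, against a lower 1.74 CPM for the IFIT and other antiviral effectors. Oas2 had 2.16, 1.85, 1.91 and 2.01 CPM in R26WT and 1.62, 2.25, 2.01 and 2.01 CPM in R26TIR1(F74G) mice on day 3 at its start site. The values on day 7 were 2.13, 2.15 and 1.35 CPM in R26WT and 1.12, 1.31 and 1.92 CPM in R26TIR1(F74G) mice, with overlap on both days and a log2 fold change of -0.16 ± 0.19 over both days. Oas1a had 3.203, 1.59, 0.8195 and 0.649 CPM in R26WT and 1.98, 1.29, 0.671 and 1.53 CPM in R26TIR1(F74G) mice on day 3. Day 7 gave 0.775, 0.988 and 0.7497 CPM in R26WT and 1.12, 1.13 and 1.42 CPM in R26TIR1(F74G) mice, all of the latter higher. Its log2 fold change was -0.22 ± 0.36 on day 3 and 0.51 ± 0.37 on day 7 (SE), and the value over both days, 0.08, changed sign when single mice were left out. The 3 Oas3 windows of 11.7 to 14.5 CPM inside the gene had log2 fold changes of -0.39 to -0.33 on day 3 and of 0.07 to 0.11 on day 7, with adjusted p-values of 0.522 or more on day 3 in edgeR's test.

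Among the IFIT and other antiviral effectors, Ifi44 had the largest start-site value of all members and the lowest level. Ifi44, an interferon-induced cytoplasmic protein, had 0.606, 1.32, 0.751 and 1.24 CPM in R26WT and 1.08, 2.52, 1.34 and 1.29 CPM in R26TIR1(F74G) mice on day 3 (chr3:151749488-151749689). For day 7 they were 0.904, 1.05 and 0.5998 CPM in R26WT and 1.66, 1.37 and 1.32 CPM in R26TIR1(F74G) mice. The groups overlapped on day 3 and were apart on day 7, and the log2 fold change was 0.72 ± 0.33 on day 3, 0.68 ± 0.35 on day 7 and 0.71 ± 0.24 for the days combined (SE). The adjusted p over both days was 0.541 in edgeR's test, and the mean count behind this window was 18.7 per library. A window 36 bp from the start site, which did not overlap the first window, had 0.519, 1.26, 0.8195 and 0.944 CPM in R26WT and 1.98, 2.15, 1.27 and 2.25 CPM in R26TIR1(F74G) mice on day 3. There the R26TIR1(F74G) mice were all higher on day 3 (1.07 ± 0.32, edgeR's adjusted p = 0.457), and on day 7 the value was -0.05 ± 0.39.

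At Ifit2, which binds viral RNA and limits its translation, the largest values lay outside the start site. A window 2380 bp upstream (chr19:34548069-34548270) had 5.23, 5.87 and 4.199 CPM in R26WT and 3.64, 2.98 and 3.19 CPM in R26TIR1(F74G) mice on day 7. On day 3 it had 4.502, 2.98, 5.12 and 4.96 CPM in R26WT and 3.06, 4.08, 2.31 and 4.504 CPM in R26TIR1(F74G) mice. The groups were apart on day 7 and overlapped on day 3, and the log2 fold change was -0.68 ± 0.19 on day 7, -0.30 ± 0.21 on day 3 and -0.47 ± 0.15 for the days combined (SE). This was the smallest p of a member window over both days, with an adjusted p of 0.469 in edgeR's test. The start-site window of Ifit2 differed by -0.14 over both days, that of Ifit1 by -0.12, that of Bst2, which tethers budding virions, by -0.08 and that of Rsad2, an antiviral radical enzyme, by -0.01. Isg20, an exonuclease, had 0.06. Over the 47 windows of this group, 5 were higher and 3 lower at an unadjusted p under 0.05 over both days, against 3.16% and 3.57% of all windows, and 4 of the higher ones lay together at the Ifi44 start site.

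Isg15, a ubiquitin-like modifier, had a single window, on its start site, with 7.15 CPM and log2 fold changes of -0.22 on day 3 and 0.12 on day 7. Usp18, which removes Isg15 from proteins and restrains the type I receptor, had 15.7, 19.98, 16.7 and 19.1 CPM in R26WT and 16.7, 16.7, 14.6 and 15.04 CPM in R26TIR1(F74G) mice on day 3. On day 7 it had 14.7, 16.2 and 13.9 CPM in R26WT and 14.9, 15.9 and 14.5 CPM in R26TIR1(F74G) mice, with overlap on both days and a log2 fold change of -0.11 ± 0.09 over both days. Trim25, a ligase that acts with the RNA sensor encoded by Ddx58, differed by -0.08 at its start site, and Trim30a by 0.05. The Trim30a window at its second promoter separated the groups on day 7, with 21.9, 22.3 and 13.5 CPM in R26WT and 22.9, 24.7 and 25.95 CPM in R26TIR1(F74G) mice, and differed by 0.31 ± 0.14 (log2, SE, edgeR's adjusted p = 0.814). Replicate 3 of the R26WT mice, the lowest value, was also the shallowest library of day 7.

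The interferon-inducible GTPases, which attack the vacuoles of intracellular pathogens, had no lower window at an unadjusted p under 0.05 on either day. On day 3 they had no higher window either (0 of 78 tested). On day 7, 6 of their 80 windows were higher, 3 of them at Gbp7 and 2 at Gbp3 within 1000 bp of the start sites, with adjusted p-values of 0.656 or more. Over all windows 2.75% were higher and 3.2% lower on day 7, and 3.93% and 3.62% on day 3. Gbp2 had the largest start-site value over both days, with 8.92, 9.13, 11.8 and 9.27 CPM in R26WT and 14.03, 11.2, 11.1 and 10.2 CPM in R26TIR1(F74G) mice on day 3. The values on day 7 were 12.02, 12.3 and 8.55 CPM in R26WT and 11.6, 11.1 and 10.7 CPM in R26TIR1(F74G) mice. The groups overlapped on both days, and the log2 fold change over both days was 0.12 ± 0.11 (SE, edgeR's adjusted p = 0.897). Igtp and Irgm1, both of the immunity-related GTPase family, differed by -0.0012 and -0.05 at their start sites over both days.

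The difference between genotypes was next compared between days. No member window had an interaction that passed edgeR's test (0 of 517, smallest adjusted p 0.504), as was the case for 0.0% of all windows. At an unadjusted p under 0.05, 34 member windows (6.58%) had a higher genotype difference on day 7 than on day 3 and 5 (0.967%) a lower one, against 2.75% and 3.57% of all windows. The 34 windows fell in 24 regions of 14 genes, and Irf1 held 13 of them, 10 in the stretch described. With loess offsets the counts were 25 and 8. With overlapping windows joined, which leaves fewer windows to test, they were 19 and 4. The shares of all windows above are those of the main fit and do not apply to counts of other fits. The count of higher windows was 20 when R26TIR1(F74G) replicate 3 of day 3 was left out, and 46 when replicate 2 of that group was left out. The median interaction of the 32 start-site windows was 0.12, with 21 above 0 and 11 below, against 0.10 over all start sites. With loess offsets it was 0.0039, with 16 above 0 and 16 below, against -0.020.

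Between the days themselves, with genotype as a term, no member window passed edgeR's test either (0 of 517, smallest adjusted p 0.500), against 0.00332% of all windows (8 windows). At an unadjusted p under 0.05, 13 (2.51%) were higher and 27 (5.22%) lower on day 7, against 2.38% and 3.1% of all windows. Without R26WT replicate 2 of day 3 they were 8 and 17, and the higher count was also 8 without R26TIR1(F74G) replicate 3 of day 3, or replicate 1 or 3 of day 7. The smallest p was at a window 24880 bp downstream of Trim25 (chr11:89024183-89024384), with 12.4, 17.7, 16.7 and 20.3 CPM on day 3 and 23.8, 20.8 and 18.6 CPM on day 7 in R26WT mice. In R26TIR1(F74G) mice it had 12.8, 14.6, 12.4 and 14.2 CPM on day 3 and 19.2, 17.6 and 19.5 CPM on day 7. The days did not overlap in R26TIR1(F74G) mice, and in R26WT mice they overlapped through replicate 4 of day 3, and the log2 fold change was 0.40 ± 0.10 (SE, edgeR's adjusted p = 0.4999). An Irf2 window 42686 bp downstream, inside the gene (chr8:46782330-46782531), had a log2 fold change of -0.85 ± 0.22 and a mean of 1.495 CPM. Irf8, a factor of myeloid and lymphoid cells, held 9 of the 27 lower windows, among them one 16158 bp downstream (chr8:120752416-120752617) with -0.47 ± 0.15. The median of the 32 start-site windows was -0.0074, against 0.013 over all start sites.

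A chosen list of other interferon pathway genes held 61 names, of which Oas1b and Oas1g were read as the same gene, without a window. The list included Stat2, Jak1, Tyk2 and further induced genes and had 956 windows. None passed an adjusted p of 0.05 in edgeR's test in any of the 5 comparisons, and the smallest adjusted p for genotype was 0.393 over both days. At an unadjusted p under 0.05 over both days, 27 of these windows were higher and 37 lower, against 3.16% and 3.57% of all windows. On day 7, 23 were higher and 22 lower, against 2.75% and 3.2%, and on day 3, 33 were higher and 42 lower, against 3.93% and 3.62%. Their start-site windows (50 genes) had a median level of 11.1 CPM and median log2 fold changes of 0.02 on day 7 and -0.13 on day 3.

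Near the limit of the rule, the 3 outermost windows inside 50 kb all belonged to Irf2, at 43378, 43342 and 42686 bp, with 1.04, 1.09 and 1.495 CPM. The 3 nearest beyond it also had Irf2 as the nearest start site, with 2.41, 20.9 and 31.6 CPM and log2 fold changes over both days of -0.18, 0.0010 and -0.08.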

How the data were processed

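ATAC-seq was measured in 14 libraries of sorted Treg cells, 1 per mouse. The authors aligned reads with Bowtie2 to mm10, called peaks with MACS2, kept reproducible peaks, merged them into one atlas and deposited raw counts per 201 bp summit window from featureCounts. Handling of duplicates and of the transposase offset is not given in the sources used here. The deposited counts were used unchanged, and all 14 columns were mapped by the genotype, day and mouse in their names. Windows of overlapping summits share reads.

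Each window was assigned to the nearest RefSeq protein-coding start site of GRCm38.p6 by its centre. Members and gene lists were chosen with earlier results of these data known. Tests used edgeR 4.0.16 in R 4.3.3 (quasi-likelihood, TMM, windows averaging 10 or more counts over the libraries fitted) with Benjamini-Hochberg adjustment over all windows and a threshold of 0.05. Genotype was tested within each day and, with a term for day, over all 14 mice, which also gave the tests of day and of the interaction. The fits were tested on simulated data. Total counts ranged from 5653289 to 20184487 per library. Pairs of libraries within a group had a chi-square per degree of freedom of 1.62 to 2.46, and none were identical. Same-numbered mice of the genotypes had correlations of deviations from -0.069 to 0.066, so replicate numbers were not used as a block.

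Windows were named by a rule: for each comparison the 3 member windows of smallest p, the 3 most and 3 least accessible start sites, the start site of largest log2 fold change over both days in each role group, and the 5 most accessible windows away from start sites. Other windows given with values were chosen after their values were seen. Alternatives were DESeq2 1.42.0, other scalings, filters, distance limits, joined windows, a replicate block and leaving out each mouse. Leaving out the 2 shallowest libraries, counting Mx1 and Mx2 as start sites and a prior count of 2 were chosen after seeing the data. Figures were drawn with matplotlib 3.10.9.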

Additional observations from a re-analysis of the deposited data

Results flagged for a closer look

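In 5 of 58 groups of 4 mice examined on day 3, 1 mouse lay far from the other 3 by Dixon's ratio, where chance gives about 1 in 20 groups. Replicate 1 of the R26WT mice had 4.50 CPM in the Irf1 window 16810 bp downstream, against 2.54 to 2.71 CPM in the others. Replicate 4 of the R26WT mice had 51.8 CPM at the Ifngr1 start site, against 37.9 to 38.8 CPM, and 43.1 CPM at the Irf1 start site, against 33.3 to 34.4 CPM. Replicate 3 of the R26WT mice had 11.8 CPM at the Gbp2 start site, against 8.92 to 9.27 CPM. Replicate 3 of the R26TIR1(F74G) mice had 22.4 CPM in the Irgm1 window 14868 bp downstream, against 23.2 to 23.3 CPM.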

How the results depend on the processing

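No member window passed the adjusted p of 0.05 under any alternative in any of the 5 comparisons, the fits with a replicate block included (0 member windows). The median log2 fold change of the member start sites on day 3 (-0.13) was 0.0093 with loess offsets and -0.031 over every member window within 1000 bp, and it ran from -0.15 to -0.035 when single mice were left out, the last without replicate 4 of the R26WT mice. The cause was not tested. Of 730 alternative values for 31 named results, 721 kept their direction, and the other 9 belonged to 3 windows over both days. Part of the named windows were chosen for a small p in these data, and the alternatives refit the same counts. A kept direction is therefore no independent support. The Ifngr1 start site turned to 0.018 with loess offsets and to 0.023 when a replicate block was added to them, and it ran from -0.11 to 0.0070 when single mice were left out, the last without replicate 4 of the R26WT mice on day 3. Oas1a turned to -0.024 without the 2 shallowest libraries, and it ran from -0.061 (without replicate 4 of the R26WT mice on day 3) to 0.42. The Irgm1 window 14868 bp downstream turned to 0.013 with loess offsets and to 0.015 when a replicate block was added to them. Counts over all windows moved more. On day 7 there were 11, against 0 by DESeq2, 52 with the replicate block and 0 to 27 when single mice were left out. Over both days there were 27, against 155 by DESeq2, 113 without the 2 shallowest libraries, 83 at a mean count of at least 50 and 2 to 56 when single mice were left out. On day 3 there were 0, against up to 30 when single mice were left out. The planned prior count was the default of the fit, so it gave no separate value. Depth limited windows of low level such as the Ifi44 start site, with 18.7 counts per library.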
